A study of Mus musculus with 4 samples.

Results

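A set of 10 transcription regulators of the blood-forming system was examined in mouse lymphoid-primed multipotent progenitors (LMPP): Gata1, Gata2, Gata3, Zfpm1, Tal1, Lmo2, Lyl1, Klf1, Gfi1 and Gfi1b. They were found as the non-control array probes whose RefSeq accession belongs to one of these symbols, which gave 11 of 55681 probes and 10 of 22362 genes and unnamed transcripts tested. All 10 passed the filter on dim probes. LMPP are early bone marrow progenitors that can still form lymphoid and myeloid cells. All cells came from IRF8-GFP knockin mice, in which green fluorescent protein reports IRF8, a transcription factor of monocyte and dendritic cell development. After magnetic enrichment, cells positive for Sca-1, CD117, CD34 and CD135 and negative for lineage markers, IL-7R and CD150 were sorted and split into IRF8-GFP positive LMPP (2 arrays) and IRF8-GFP negative LMPP (2 arrays). The age, sex and strain of the mice and the number of mice behind an array are not given in the sources used here. The sample titles number the arrays of each group exp1 and exp2, but do not say whether these came from separate mice. The p-values of the fit rest on the spread between these arrays, moderated by the spread pooled over all genes. Part or all of this spread may be technical.

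GATA factors bind the short DNA word GATA through zinc fingers. In red cell and platelet precursors Gata1 works with its cofactor Zfpm1 (FOG1) and in one complex with the basic helix-loop-helix protein Tal1 and the LIM-domain bridge Lmo2, while Gata2 is the GATA factor of stem cells and mast cells and Gata3 that of T cells and innate lymphoid cells. Lyl1 is the closest relative of Tal1, Klf1 is a zinc finger activator of globin genes, and Gfi1 and Gfi1b are closely related zinc finger repressors, Gfi1 acting in stem cells, granulocytes and lymphocytes and Gfi1b in red cell and platelet precursors.

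The GATA arm of this set was lower in IRF8-GFP positive LMPP, and 3 factors lay close to the bulk of all genes. Gata3, Gata2, Zfpm1, Gata1, Gfi1, Tal1 and Lmo2 were lower, Lyl1 and Gfi1b were called higher by a small amount whose direction depends on how the arrays are scaled, and Klf1 did not pass the test. The comparison was fitted with limma over all 22362 genes, and a gene was called at a Benjamini-Hochberg adjusted p of 0.05. Of the 10 factors 7 were called lower and 2 higher, where 59.9% of all genes were called, 21.4% lower and 38.5% higher. Among the 13341 tested genes with a symbol these shares were 19% and 44.1%. The median log2 difference, IRF8-GFP positive minus negative, was -0.67 over the 10 factors and 0.16 over all genes. In bulk RNA such as this, fewer cells of a type and less RNA per cell cannot be told apart.

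All 10 factors had both positive arrays on one side of both negative arrays, 7 of them below, but so did 82.2% of all genes, with 29.8% of all genes below, so the separation itself is close to the background. Levels are given as the log2 of the scanner's processed signal minus the array's 75th percentile, a scale on which levels of different genes cannot be compared because each probe has its own brightness. Spots well above background numbered 29631 and 30266 on the positive arrays and 33506 and 33681 on the negative arrays, of 59305 in all. The transcript of the reporter gene followed the sort: Irf8 was at 5.13 and 5.22 in IRF8-GFP positive LMPP and at 1.64 and 1.60 in IRF8-GFP negative LMPP. All 7 marker genes of LMPP were above background on every array, and their summed signal, in units of the array's 75th percentile, was 813 and 829 on the positive and 539 and 543 on the negative arrays. Of the genes behind the gate, Ly6a, which encodes Sca-1 (-0.96, SE 0.07, limma adjusted p = 0.00222), and Kit, which encodes CD117 (-0.39, SE 0.06, adjusted p = 0.00769), were lower, but Kit did not pass without negative replicate 1 (0.0516) or negative replicate 2 (0.0597).

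**Figure D1:**
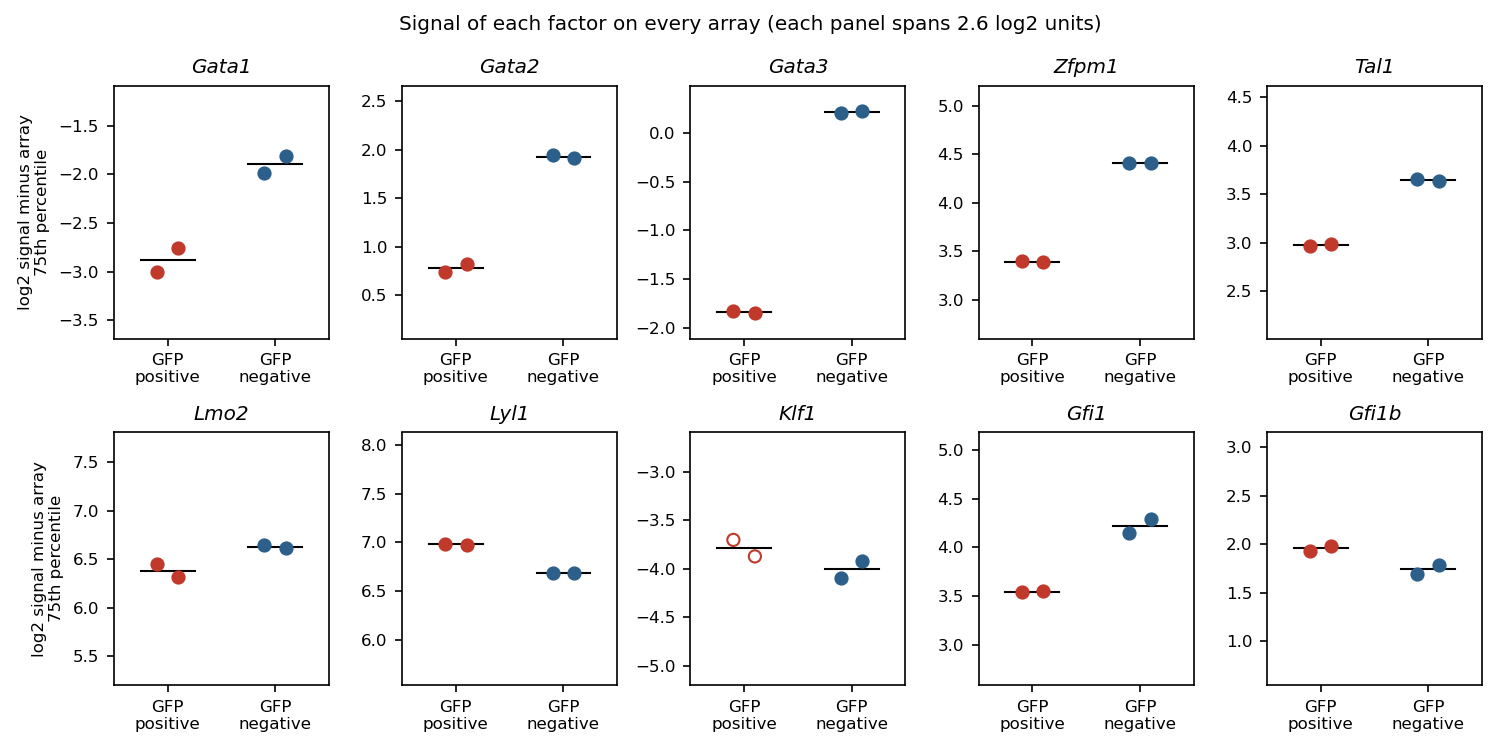
Log2 signal of each factor relative to the array's 75th percentile on the 2 IRF8-GFP positive arrays (red, left) and the 2 IRF8-GFP negative arrays (blue, right), with the group mean as a line and open circles where no array of the group was well above background. All panels span the same number of log2 units, so that the gap of Gata3 can be set against the smaller gaps of Lmo2, Lyl1 and Gfi1b.

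Gata3 changed most of the 10 factors. This factor, which T cells and innate lymphoid cells need and which stem cells also contain, was at -1.83 and -1.85 in IRF8-GFP positive LMPP and at 0.20 and 0.23 in IRF8-GFP negative LMPP. The processed signals behind these levels were 89.3 and 115 on the positive arrays and 505 and 637 on the negative arrays. Both positive arrays were far below both negative ones, and arrays of a group differed little. The log2 difference was -2.06 (SE 0.05), a 4.17-fold lower signal, with a limma adjusted p of 0.000859. Only 0.863% of all genes tested had a lower difference.

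Gata2, the GATA factor of stem cells and mast cells, was at 0.74 and 0.82 in IRF8-GFP positive LMPP and at 1.95 and 1.91 in IRF8-GFP negative LMPP. The groups were well apart, with means of 0.78 ± 0.06 in positive and 1.93 ± 0.03 in negative LMPP (SD, n = 2 each). Gata2 was thus 2.22-fold lower in positive LMPP (log2 difference of -1.15 with SE 0.06, limma adjusted p = 0.00164). Both groups kept a Gata2 signal well above background.

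Gata1, the master regulator of red cells and platelets, was dim in both groups. It was at -3.0 and -2.76 in IRF8-GFP positive LMPP and at -1.99 and -1.81 in IRF8-GFP negative LMPP. The lowest signal that counted as well above background was -3.99 and -4.01 on the positive arrays and -4.67 and -4.73 on the negative arrays. The scanner software marked Gata1 as well above background on all 4 arrays. The log2 difference was -0.99 (SE 0.12, 1.98-fold lower, limma adjusted p = 0.00465). With normexp background correction, which compresses dim signals, the log2 difference of Gata1 was -0.31 and still passed.

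Zfpm1, which encodes the GATA cofactor FOG1, had 2 probes. The brighter probe was at 3.40 and 3.39 in IRF8-GFP positive LMPP and at 4.41 on both arrays of IRF8-GFP negative LMPP. That is a 2.03-fold lower signal in positive LMPP (log2 difference of -1.02 with SE 0.05, limma adjusted p = 0.00159). The dimmer Zfpm1 probe gave -1.06 (SE 0.06) when probes were fitted in place of genes, so both measured nearly the same change. Of the GATA factors and Zfpm1, 3 were at least 2-fold lower and called, which 5.61% of all genes were.

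Related factors were also compared within each array, which cancels the scaling of the array. Only the change of such a difference between the groups can be read. With 2 arrays in each group the smallest p of an exact two-sided permutation test is 0.333, which makes these changes descriptions. The log2 difference Gata2 minus Gata1 changed by -0.16 (exact permutation p = 0.667, n = 2 arrays a group), close to the 0.13 by which arrays of a group varied (pooled SD), but it ranged from -0.78 under normexp background correction to -0.05 over 19 alternatives. Gata2 minus Gata3 changed by 0.91 (pooled SD 0.06, exact permutation p = 0.333, n = 2 arrays a group), the positive arrays having kept relatively more Gata2 than Gata3 signal. The change was 0.41 under normexp background correction, the lowest value over these alternatives. Gata2 minus Spi1, whose product PU.1 opposes GATA factors in blood cells, changed by -1.63, between -1.72 and -1.50 over the alternatives.

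Both Gata2 promoter windows in RefSeq (GRCm38.p6, plus strand, each holding the 250 bases before and the 50 after a transcript start) are shown because this factor heads the GATA arm in stem cells and has a distal and a proximal start. The first is chr6:88193641-88193940 and the second chr6:88198414-88198713.
Gata2 distal: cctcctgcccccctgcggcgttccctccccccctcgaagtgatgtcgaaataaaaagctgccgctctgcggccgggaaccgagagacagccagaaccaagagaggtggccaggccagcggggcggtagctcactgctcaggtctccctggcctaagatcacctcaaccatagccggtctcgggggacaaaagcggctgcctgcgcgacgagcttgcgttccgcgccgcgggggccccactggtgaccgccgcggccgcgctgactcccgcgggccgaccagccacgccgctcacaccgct
Gata2 proximal: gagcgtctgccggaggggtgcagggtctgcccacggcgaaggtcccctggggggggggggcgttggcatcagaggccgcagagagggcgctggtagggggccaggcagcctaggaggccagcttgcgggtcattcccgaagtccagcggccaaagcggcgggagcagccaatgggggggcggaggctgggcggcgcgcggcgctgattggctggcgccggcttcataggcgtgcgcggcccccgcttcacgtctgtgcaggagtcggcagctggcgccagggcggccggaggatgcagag
Neither holds AGATAA or TGATAA on either strand, and both are rich in G and C (69.3% and 73.7%). That says only that these letters are not in these windows.

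**Figure D2:**
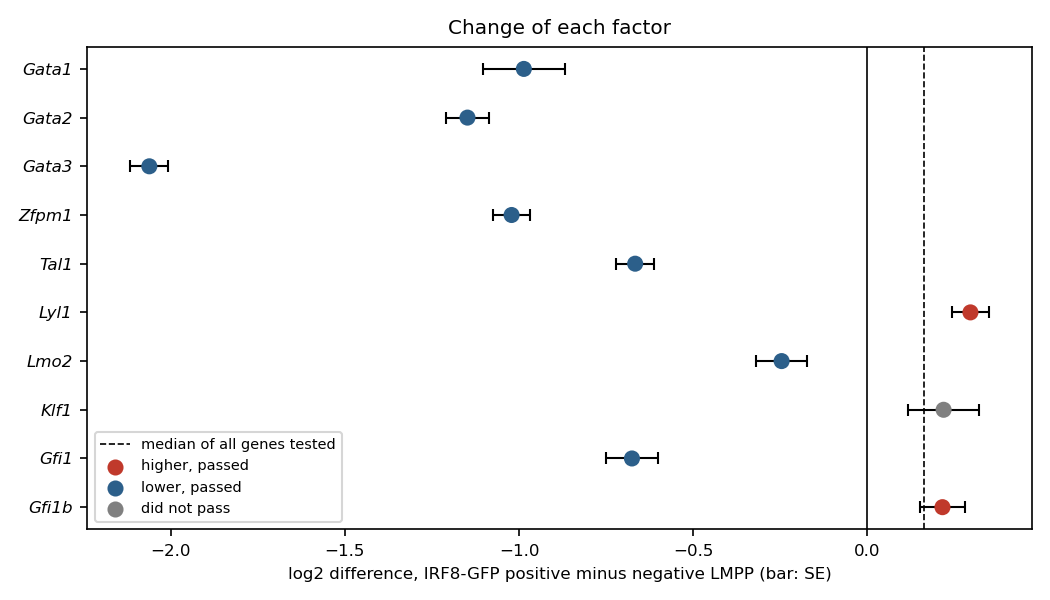
Log2 difference of each factor, IRF8-GFP positive minus negative LMPP, with its SE. Gata3 lies at -2.06, the other GATA factors and Zfpm1 near -1, Tal1 and Gfi1 near -0.67, and Lyl1, Klf1 and Gfi1b beside the dashed line, the median of all genes at 0.16.

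Tal1, the helix-loop-helix factor of stem, red cell and platelet precursors, was lower in IRF8-GFP positive LMPP while its relative Lyl1 had no settled direction. Tal1 was at 2.97 and 2.99 in positive LMPP and at 3.66 and 3.64 in negative LMPP, without overlap. Its log2 difference was -0.67 (SE 0.05, 1.59-fold lower, limma adjusted p = 0.00234). Lyl1 was at 6.98 on both positive arrays and at 6.68 and 6.69 on the negative arrays, a log2 difference of 0.30 (SE 0.05, limma adjusted p = 0.0129) and thus 0.13 above the median of all genes. The sign of Lyl1 turned under spike-in scaling (-0.013), cyclic loess (-0.15) and quantile normalization (-0.16), and was also negative in the matrix the authors deposited (-0.17). Nor did it pass when negative replicate 1 (adjusted p = 0.0801) or negative replicate 2 (0.0806) was left out, and Lyl1 is given no direction here.

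Tal1 and Lyl1 changed unequally under each alternative. Within an array, where scalings that shift all genes alike cancel, Tal1 minus Lyl1 changed by -0.96 between the groups (pooled SD 0.02, exact permutation p = 0.333, n = 2 arrays a group), with values from -0.98 to -0.79 over the 19 alternatives, the smallest under quantile normalization.

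Lmo2, the LIM protein that joins Tal1 or Lyl1 to GATA factors through Ldb1, had a small difference. It was at 6.45 and 6.31 in IRF8-GFP positive LMPP and at 6.64 and 6.61 in IRF8-GFP negative LMPP. The positive arrays differed from each other by about as much as the nearer one did from the negative arrays. The log2 difference of Lmo2 was -0.25 (SE 0.07, 1.19-fold lower, limma adjusted p = 0.0461). It was lower under each of the 7 other scalings, down to -0.72, but did not pass without negative replicate 1 (adjusted p = 0.178), negative replicate 2 (0.15) or positive replicate 2 (0.126).

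The more upstream of the RefSeq promoter windows of Tal1 (GRCm38.p6, chr4:115056176-115056475, plus strand) is shown because it holds both kinds of word that the Tal1 complex is known to read. Capitals mark a GATA word (AGATAA, here as TTATCT on the opposite strand, 205 bases before the start) and an E-box (CAGATG, here as CATCTG, 11 bases after it).
Tal1: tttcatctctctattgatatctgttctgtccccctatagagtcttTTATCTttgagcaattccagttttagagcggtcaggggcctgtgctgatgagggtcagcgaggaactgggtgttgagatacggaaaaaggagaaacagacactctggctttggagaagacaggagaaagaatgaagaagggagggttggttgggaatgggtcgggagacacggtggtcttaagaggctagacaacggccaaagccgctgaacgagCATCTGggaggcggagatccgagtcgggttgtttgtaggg
AGATAA was present on either strand in 11.2% of all 32851 promoter windows and in 1 of the 12 windows of these factors, and CAGATG in 17.2% of all and in 2 of the 12. These matches are a description of this window only.

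The gene next to Tal1 changed more than Tal1 itself. Pdzk1ip1, which lies directly beyond Tal1 in RefSeq gene order and is known to share regulatory elements with it, was at -0.04 and 0.10 in IRF8-GFP positive LMPP and at 3.14 and 3.23 in IRF8-GFP negative LMPP. That is a log2 difference of -3.15 (SE 0.08, limma adjusted p = 0.000859), which stayed between -3.46 and -3.03 under the 7 other scalings. Stil, the neighbour on the other side of Tal1, had 0.81 (SE 0.11, adjusted p = 0.00578). Of the 2 coding neighbours on each side of every factor, 31 of 40 were tested. Among them 16 were higher, 5 lower and 10 did not pass, with a median log2 difference of 0.24. The bulk of genes also leaned higher, with 38.5% of all genes higher, 21.4% lower and a median of 0.16. Rpn1, which lies beside Gata2, was higher (0.98, SE 0.06, adjusted p = 0.0018) where Gata2 was lower.

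Klf1, the activator of adult globin genes, was at the limit of measurement. It was at -3.70 and -3.87 in IRF8-GFP positive LMPP and at -4.10 and -3.92 in IRF8-GFP negative LMPP. Klf1 was well above background on both negative arrays and on 0 of the 2 positive arrays, as the scanner software marks each spot, so no fold is given (limma log2 difference 0.22, SE 0.10, adjusted p = 0.132). With normexp background correction the difference of Klf1 was 0.43 and passed (adjusted p = 0.0029), while the sign turned with spike-in scaling (-0.090).

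The 2 growth factor independence repressors parted. Gfi1 was at 3.54 and 3.55 in IRF8-GFP positive LMPP and at 4.15 and 4.29 in IRF8-GFP negative LMPP, 1.60-fold lower in positive LMPP (log2 difference -0.68, SE 0.07, limma adjusted p = 0.00378). Gfi1b was at 1.93 and 1.98 in positive LMPP and at 1.70 and 1.79 in negative LMPP, a log2 difference of 0.22 (SE 0.06, limma adjusted p = 0.0474), which is 0.05 above the median of all genes. The call for Gfi1b was lost whichever array was left out (adjusted p of 0.0877 to 0.206) and under all 7 other scalings, 2 of which turned the sign (-0.093 with spike-in scaling and -0.019 with the percentile taken over probes above background on all arrays). Gfi1b is therefore given no direction either.

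Within an array, Gfi1 minus Gfi1b changed by -0.89 between the groups (pooled SD 0.03, exact permutation p = 0.333, n = 2 arrays a group) and lay between -1.06 and -0.86 over the 19 alternatives. Gfi1 is known to repress Irf8, and Gfi1 minus Irf8 changed by -4.23 (between -4.32 and -4.14), most of it from Irf8, which the sort selected for.

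**Figure D3:**
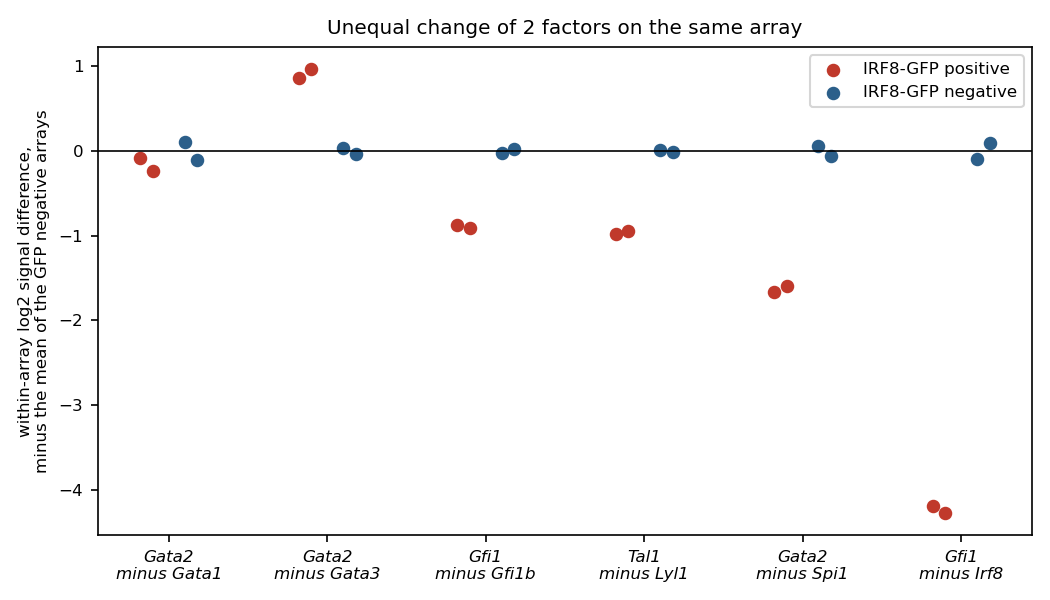
Within-array log2 signal difference of 6 pairs of factors on the IRF8-GFP positive arrays (red, left) and negative arrays (blue, right), each pair shifted so that the negative arrays average 0. Gata2 minus Gata1 overlaps between the groups, while Gfi1 minus Gfi1b and Tal1 minus Lyl1 are lower on both positive arrays by 0.89 and 0.96 on average.

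The promoter windows of the Gfi pair are shown because these related genes changed unequally. They are chr2:28621933-28622232 for Gfi1b, and chr5:107725756-107726055 and chr5:107724294-107724593 for the upstream and downstream starts of Gfi1, all on the minus strand of GRCm38.p6 and written 5′ to 3′ along the gene. Capitals mark a GATA word (TGATAA, 120 bases before the start) and AAATCA, which contains the AATC core read by Gfi proteins (34 bases before the start).
Gfi1b: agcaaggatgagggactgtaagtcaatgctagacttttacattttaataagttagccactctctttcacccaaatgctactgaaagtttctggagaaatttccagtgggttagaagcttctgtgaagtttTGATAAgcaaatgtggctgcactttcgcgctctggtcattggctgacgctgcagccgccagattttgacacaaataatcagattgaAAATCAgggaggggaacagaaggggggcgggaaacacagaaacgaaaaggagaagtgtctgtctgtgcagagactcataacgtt
Gfi1 upstream: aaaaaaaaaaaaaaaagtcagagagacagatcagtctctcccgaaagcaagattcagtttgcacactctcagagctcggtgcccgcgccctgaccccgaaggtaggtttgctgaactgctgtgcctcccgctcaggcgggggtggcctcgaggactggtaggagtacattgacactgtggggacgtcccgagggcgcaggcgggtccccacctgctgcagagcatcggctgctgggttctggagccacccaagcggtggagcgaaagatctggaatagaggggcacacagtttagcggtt
Gfi1 downstream: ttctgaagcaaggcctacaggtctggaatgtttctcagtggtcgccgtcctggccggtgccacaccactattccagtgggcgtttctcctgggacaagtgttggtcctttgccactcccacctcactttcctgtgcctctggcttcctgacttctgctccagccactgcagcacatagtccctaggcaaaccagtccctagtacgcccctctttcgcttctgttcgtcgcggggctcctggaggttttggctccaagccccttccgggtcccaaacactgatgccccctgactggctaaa
Both capitalised words are in the Gfi1b window, while both Gfi1 windows lack AGATAA and both words on either strand. The shorter core AATC by itself is also in the upstream Gfi1 window, as gatt on the opposite strand, and unmarked elsewhere in the Gfi1b window. The word TGATAA was in 9.05% of all windows and in 2 of the 12 windows of these factors, and AAATCA in 14% of all and in 1 of the 12. These matches describe the windows only, and whether they bear on the change of Gfi1 or Gfi1b was not tested. RefSeq windows were found for 9 of the 10 factors. Lmo2 has none in the table.

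**Figure D4:**
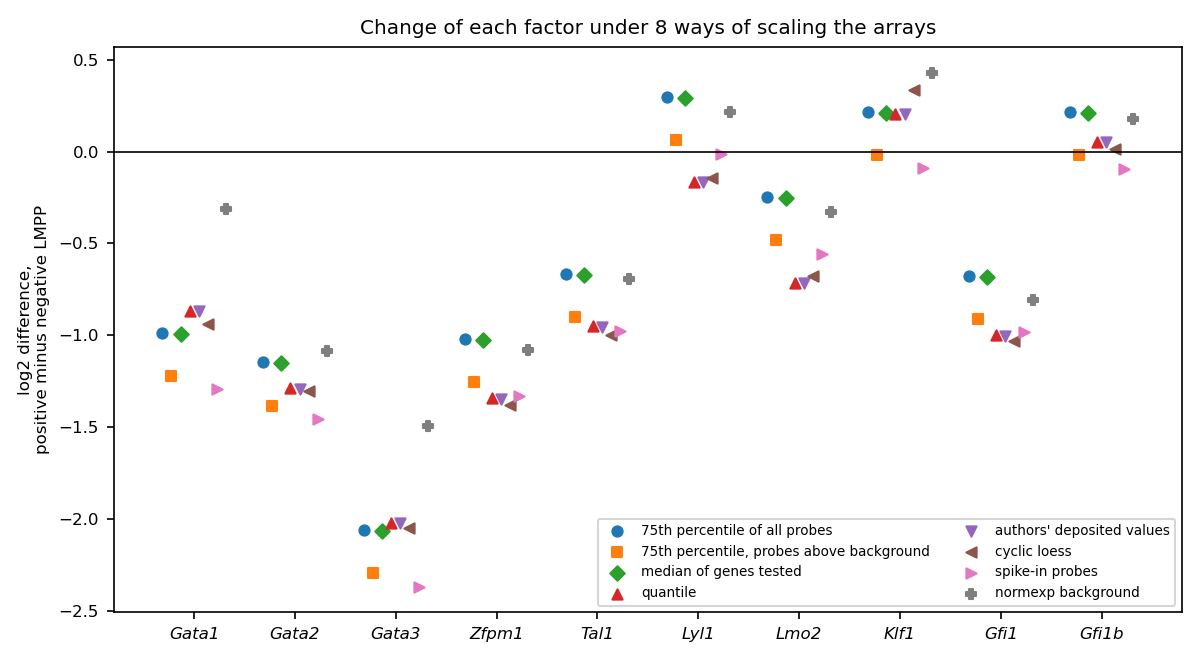
Log2 difference of each factor, IRF8-GFP positive minus negative LMPP, under the 75th percentile scaling used for all values here and 7 others. The symbols of Gata1, Gata2, Gata3, Zfpm1, Tal1, Lmo2 and Gfi1 are all below 0, whereas those of Lyl1, Klf1 and Gfi1b fall on both sides of it.

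The sizes of all these differences depend on the scaling, since the median of all genes was 0.16 here, 0.04 both in the matrix the authors deposited and under quantile normalization, 0.02 with cyclic loess, -0.07 with the percentile over probes above background on all arrays and -0.14 with spike-in scaling. Gata1, Gata2, Gata3, Zfpm1, Tal1, Lmo2 and Gfi1 were called lower under each of the 7 other scalings. The share of higher genes among the calls was 64.3% here, 52.4% in the deposited matrix, 52.6% under quantile normalization, 49.1% with cyclic loess, 37.7% with that percentile and 28.9% with spike-in scaling.

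The genes whose profile over the 4 arrays was most like that of a factor were found by the root mean square distance between log2 signals, each centred on its own mean. For Gata3 they were Bcam, Trim47 and Cdkn1c (distances of 0.03), with log2 differences of -2.12, -2.12 and -2.11. Cdkn1c encodes the cell cycle inhibitor p57 and Bcam a surface adhesion protein. For Gata2 they were Clic5, Cav2 and Arap3 (distances of 0.02), and for Zfpm1 they were Pim2, Krt18 and Dach1 (distances of 0.01). With normexp background correction the differences of Bcam, Cdkn1c and Cav2 were -0.91, -1.33 and -0.36. With 4 arrays in 2 groups this likeness mostly restates the size of the group difference.

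Listed partners and related factors of the Tal1 and Lmo2 complex moved in both directions. Ldb1, through which Lmo2 joins GATA factors, had -0.15 (SE 0.06, limma adjusted p = 0.0935). Of 19 listed partners 17 were tested, with 7 higher, 3 lower and 7 that did not pass. These counts are near the shares over all genes, 38.5% higher and 21.4% lower. The median of the partners was 0.05 on the log2 scale (all genes, 0.16). Lmo1, the close relative of Lmo2, was the most changed, at 2.13 and 2.25 in IRF8-GFP positive LMPP and at -0.53 and 0.63 in IRF8-GFP negative LMPP. The negative arrays of Lmo1 were far apart, and its difference of 2.14 carried a wide error (SE 0.41, limma adjusted p = 0.0151). Lmo4, another LIM-only gene, was higher by 0.58 (SE 0.06, adjusted p = 0.00336). Tcf3, whose E proteins pair with Tal1 and Lyl1, had 0.48 (SE 0.06, adjusted p = 0.00534) and Spi1 0.48 (SE 0.06, adjusted p = 0.00512), calls that were lost with spike-in scaling (adjusted p of 0.133 and 0.0695).

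The corepressor Cbfa2t3 (ETO2), which rides on the Tal1 complex, was lower (-0.48, SE 0.07, adjusted p = 0.00669), as was Nfe2, a partner factor of platelet precursors (-0.42, SE 0.06, adjusted p = 0.00608), both just missing the threshold without negative replicate 2 (0.0516 and 0.051). Of the other factors known to bind together with Gata2, Tal1, Lyl1 and Lmo2 in stem cells, Runx1 was higher (0.44, SE 0.06, adjusted p = 0.0061), a call lost with spike-in scaling (0.14, adjusted p = 0.107). Erg had -0.29 and just missed the threshold (adjusted p = 0.0571), but was called lower under 6 of the 7 other scalings, down to -0.60. Fli1 had -0.05 (adjusted p = 0.638), and was called lower under 4 of the 7, down to -0.38. Without negative replicate 2 none of the partners was called lower, and with spike-in scaling 2 were higher and 8 lower.

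Corepressors used by Gfi1, Gfi1b, Zfpm1 and Tal1 centred a little above the bulk of genes. Their median was 0.31, which is 0.15 above that of all genes. Of 20 tested 15 were higher, 2 lower and 3 did not pass, where 38.5% of all genes were higher and 21.4% lower. This count depended on the scaling: 5 were higher under cyclic loess, spike-in scaling and quantile normalization and 5 in the deposited matrix, and the median turned to -0.04 in all of these but spike-in scaling. It was also 6 without negative replicate 1, 9 without negative replicate 2 and 10 without positive replicate 2. Suv39h1, a histone methyltransferase (0.77, SE 0.07, adjusted p = 0.00284), and Rbbp4, a histone-binding protein of the NuRD complex (0.68, SE 0.05, adjusted p = 0.00227), were higher under all 8 scalings. Rcor3, a relative of the CoREST scaffold, was lower (-0.63, SE 0.07, adjusted p = 0.00352). Kdm1a, the histone demethylase LSD1 that Gfi proteins recruit, had 0.38 (SE 0.08, adjusted p = 0.0186) but passed under only 2 of the 7 other scalings. Ajuba was at least 1.70-fold lower on the processed signal (adjusted p = 0.0287), with 0 of 2 positive arrays above background. With normexp background correction its log2 difference was -0.15, smaller than that bound, and did not pass (adjusted p = 0.246). Ajuba also did not pass without negative replicate 2 (log2 difference -0.58) or without positive replicate 2 (-0.69).

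Lineage genes of the factors that were lower did not all follow. Platelet lineage genes, known targets of Gata1, Tal1 and Fli1, were mostly lower: of 20 tested 15 were lower, 1 higher and 4 did not pass, with a median log2 difference of -1.06 (-0.90 with genes that have only a bound set at it), and 14 to 17 were lower under the 7 other scalings. Of all genes 21.4% were lower. Among the 15, 2 had no positive array above background. With genes above background on all 4 arrays, 12 of 17 tested were lower and the median was -0.89. Mmrn1 (-2.43, SE 0.05), Rab27b (-2.45, SE 0.09, with 1 of 2 positive arrays above background, and -1.11 with normexp background correction) and Pf4, which encodes platelet factor 4 (-1.80, SE 0.07), were among those lower, with limma adjusted p-values of 0.000802 to 0.00126. Itga2b (-1.3) and Vwf (-1.20) were lower too, and Itgb3 was the 1 called higher (0.91, SE 0.07, adjusted p = 0.0021).

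Red cell genes, known targets of Gata1, Tal1 and Klf1, were mixed. Of 19 tested, 10 were lower, 5 higher and 4 did not pass, with a median of -0.32 (-0.15 with bounds). Over all genes 21.4% were lower and 38.5% higher. The lean depended on the processing. With no filter on dim probes 10 of 28 red cell genes were higher and 8 lower, with a median of -0.09 (all genes, 0.34). With normexp background correction 6 were higher and 7 lower, with a median of -0.04 (all genes, 0.20). Without negative replicate 1, and likewise without negative replicate 2, 3 were higher. Car2, a carbonic anhydrase gene, was lower (-1.68, SE 0.05, adjusted p = 0.00114), and so were the globin genes Hba-a1 (-1.27, SE 0.08) and Hbb-bs (-1.27, SE 0.21), although the probes of these near-identical copies may share signal. Hbb-bs did not pass without negative replicate 2 (adjusted p = 0.0593), and had -0.37 with normexp background correction. Tfrc, the transferrin receptor gene that all dividing cells use, was higher (1.47, SE 0.08, adjusted p = 0.00159).

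**Figure D5:**
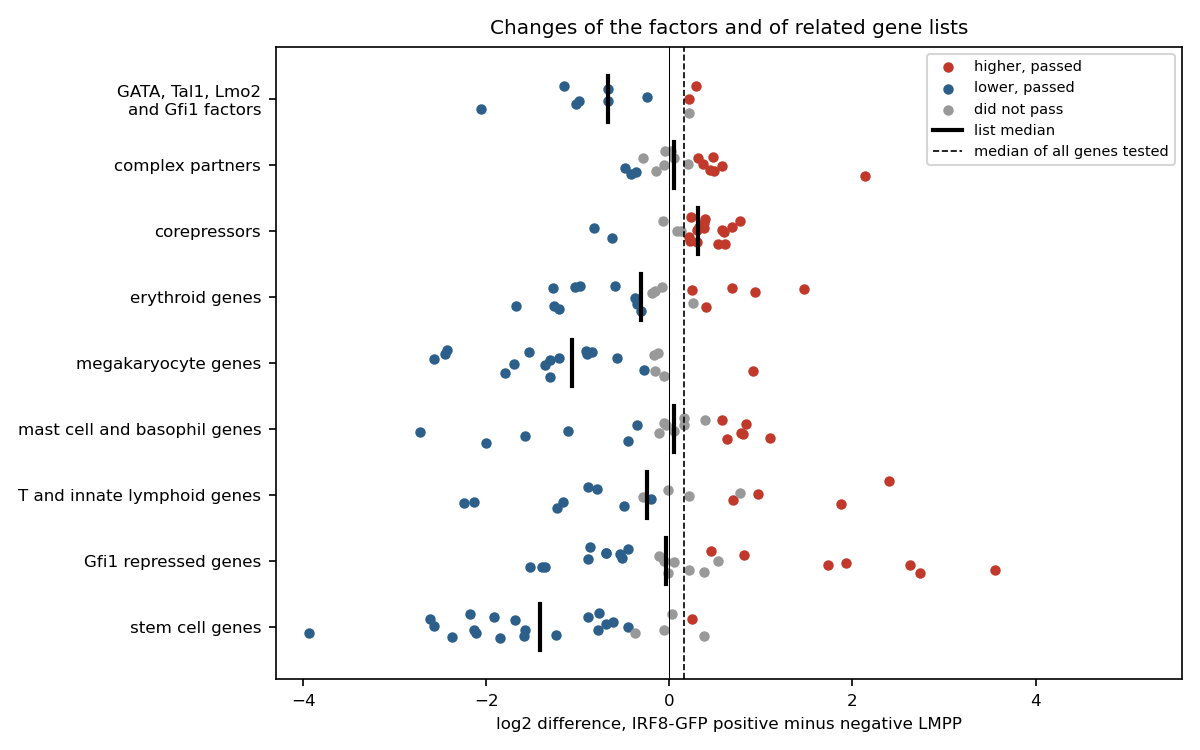
Log2 differences, IRF8-GFP positive minus negative LMPP, of the 10 factors and of the tested genes of 8 related lists, with list medians as bars and the median of all genes, 0.16, as a dashed line. Platelet lineage genes (median -1.06) and stem cell genes (median -1.41) lie mostly left of the line, while partners and corepressors centre near it.

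Mast cell and basophil genes, several of them Gata2 targets, were split, with 6 higher, 6 lower and 7 that did not pass of 19 tested. The shares over all genes were 38.5% higher and 21.4% lower. This list had a median log2 difference of 0.05, which is 0.12 below that of all genes. Slc18a2, a vesicle transporter gene, was lower (-2.01, SE 0.06, adjusted p = 0.000919, and -2.68 over the mean of its probes), as was Cd63 (-1.11, SE 0.06, adjusted p = 0.00166). On the processed signal Hpgds, a prostaglandin synthase gene, was at least 1.63-fold lower (adjusted p = 0.0015). Il4 was at least 1.79-fold lower (adjusted p = 0.00342), since neither gene was above background in positive LMPP. These bounds did not hold with normexp background correction. It gave smaller log2 differences of -0.32 for Hpgds (adjusted p = 0.0245) and -0.17 for Il4, which did not pass (adjusted p = 0.0892). Fcer1g, the shared signalling chain of Fc receptors, was higher (1.10, SE 0.06, adjusted p = 0.00163). Mcpt8 (0.84), Il3ra (0.81), Hdc (0.78), Csf2rb2 (0.63) and Csf2rb (0.57) were higher too, with limma adjusted p-values of 0.00284 to 0.0129. The mast cell protease gene Cpa3 had -0.04 (adjusted p = 0.591), but was called lower under 2 of the 7 other scalings, down to -0.35. Under these scalings 5 to 8 genes of the list were higher and 4 to 9 lower.

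Genes of T cells and innate lymphoid cells, the lineages that need Gata3, gave 8 lower, 4 higher and 4 that did not pass of 16 tested. Their median log2 difference was -0.24. Shares over all genes were 21.4% lower and 38.5% higher. With no filter on dim probes 7 of 24 were lower and 7 higher, with a median of 0.10 (all genes, 0.34). Rora, a factor of innate lymphoid cells, was at -3.59 and -3.55 in IRF8-GFP positive LMPP and at -1.51 and -1.35 in IRF8-GFP negative LMPP (log2 difference -2.14, SE 0.08, limma adjusted p = 0.00126), and its difference was -0.90 with normexp background correction. Thy1 (-0.89) and Notch1 (-0.79) were lower, although the mean of all Notch1 probes gave -0.08 (adjusted p = 0.327). Notch3 was at least 1.23-fold lower on the processed signal (adjusted p = 0.00147). With normexp background correction the log2 difference of Notch3 was -0.19, smaller than that bound, and did not pass (adjusted p = 0.0856). Il7r (2.40, SE 0.06, adjusted p = 0.000835) and Cd28 (1.87, SE 0.08, adjusted p = 0.00137, and 1.13 with normexp background correction) were higher, although cells with surface IL-7R had been sorted out of both groups. Tcf7, Bcl11b, Cd3g and Cd3d were not tested because they did not pass the filter on dim probes.

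Genes described as repressed by Gfi1 or Gfi1b did not move as one group. Of 24 tested 7 were higher, 10 lower and 7 did not pass, where 38.5% of all genes were higher and 21.4% lower. The list median was -0.04, which is 0.20 below that of all genes. Irf8 (3.55, SE 0.06), which the sort selected for, Csf1r, the M-CSF receptor gene (2.74, SE 0.06), Pmaip1, which encodes the death protein Noxa (2.63, SE 0.05), and Id1, an inhibitor of helix-loop-helix factors (1.92, SE 0.06), were higher, with adjusted p-values of 0.000802 to 0.00114. With normexp background correction Pmaip1 had 1.5, Id1 1.18 and Egr1 -0.76, and the mean of the Csf1r probes gave 2.10. The early response genes Egr1 (-1.40, SE 0.07) and Jun (-1.36, SE 0.07) were lower, as were the stem cell factors Meis1 (-0.89) and Hoxa9 (-0.69).

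Stem cell genes were lower alongside the GATA factors. Of 24 tested 19 were lower, 1 higher and 4 did not pass, with a median of -1.41 (-0.77 with bounds), and 16 to 22 were lower under the 7 other scalings. Of all genes 21.4% were lower. Among the 19, 4 had no positive array above background, so that only their negative arrays brought them into the test. With genes above background on all 4 arrays, 15 of 19 tested were lower and the median was -0.89. Esam (-3.94, SE 0.08, and -2.47 with normexp background correction), Procr (-2.61, SE 0.12) and Hlf (-2.38, SE 0.07) were among those lower. Of 6 stem cell markers 3 were above background on each positive array and 5 on each negative array, and their summed signal, in units of the array's 75th percentile, was 7.60 and 7.43 on the positive arrays and 40.2 and 42.1 on the negative arrays. Slamf1, which encodes CD150, was not above background on any array.

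Markers of other lineages were measured too. Their sums, like those of the LMPP and stem cell markers, add unlogged signals, so bright probes weigh most. Most of the red cell sum came from Hbb-bt, most of the T and NK cell sum from Lck and most of the monocyte sum from Csf1r. A sum thus need not speak for each marker in it: Lck had -0.20 (limma adjusted p = 0.0400), but Cd3e had 0.77 (adjusted p = 0.137). The summed signal of 6 platelet lineage markers was 2.51 and 2.56 on the positive arrays and 6.86 and 7.0 on the negative arrays. That of 7 red cell markers was 8.82 and 9.37 on the positive and 13.8 and 15.2 on the negative arrays. Mast cell and basophil markers summed to 6.27 and 7.04 on the positive and 5.07 and 5.27 on the negative arrays, with Ms4a2 not above background, and T and NK cell markers to 18.5 and 17.9 on the positive and 20.0 and 19.8 on the negative arrays, with Cd3g not above background. Monocyte markers summed to 54.7 and 56.9 on the positive and 7.64 and 7.55 on the negative arrays. B cell markers (0.254 and 0.243 on the positive, 0.161 and 0.201 on the negative arrays) and neutrophil markers (0.227 and 0.282 on the positive, 0.343 and 0.338 on the negative arrays) were near background, with Ms4a1, Ebf1, Ltf and Ngp not above it on any array. The part of these markers in the differences of Gata1, Gata2, Gata3, Zfpm1, Tal1 and Gfi1 was not tested.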

How the data were processed

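Total RNA of 4 samples, 2 of IRF8-GFP positive and 2 of IRF8-GFP negative LMPP, was labelled with a low-input amplification kit, per the labels' protocols, and hybridised to one-colour Agilent arrays. The deposited intensity of each spot is the processed signal of Agilent Feature Extraction 10.7.3.1, background-subtracted within the array, per the file headers. The authors' matrix of intensity values has the same quantiles on all 4 arrays, so it was used only as an alternative. Log2 processed signals were centred on each array's 75th percentile. Of 55669 probes, 30478 were kept that were well above background on both arrays of 1 or both groups, and a gene was read from its brightest kept probe. Symbols came from RefSeq accessions through a GRCm38.p6 gene table: 26756 probes had 1 symbol and 28913 had none. The array headers name another build, so no gene coordinates are given. No spot of a kept probe was saturated.

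IRF8-GFP positive was set against negative LMPP with limma 3.58.1 in R 4.3.3 (lmFit and eBayes), with Benjamini-Hochberg adjustment over 22362 genes, a method tested on simulated data. Having 2 arrays a group limits the precision. The fit had 2 residual degrees of freedom and 2.05 from the spread pooled over all genes. For genes whose arrays lay very close, such as Zfpm1, the SE mostly reflects that pooled spread. Where no array of a group was above background, the fold is given as a lower bound on the processed signal. The mean of the other group is set against a floor. On each dim array this floor is the higher of the lowest signal above background and the probe's own signal. That lowest signal is not a strict detection limit. On the positive arrays it was -3.99 and -4.01, but Klf1 at -3.70 and -3.87 was not above background. With normexp background correction the differences of Hpgds, Il4, Notch3 and Ajuba were smaller than their bounds. A total of 19 alternatives were tried, 7 of which change the background correction or scaling. The factors and the gene lists were chosen with earlier results of these data known. Named were all 10 factors, up to 4 called genes of each list with the largest absolute log2 difference, and the 3 most similar genes for each of the 3 most changed factors. Some genes that this rule names are not reported here. Other genes, including the neighbours in RefSeq gene order, Itga2b, Vwf, Itgb3, Runx1, Erg, Fli1, Ldb1, Cbfa2t3, Nfe2, Kdm1a, Fcer1g, Mcpt8, Il3ra, Hdc, Csf2rb2, Csf2rb, Cpa3, Thy1, Notch1, Lck, Cd3e, Hbb-bt, Egr1, Jun, Meis1 and Hoxa9, were chosen after their values were seen.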

Additional observations from a re-analysis of the deposited data

How the results depend on the processing

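Gata1, Gata2, Gata3, Zfpm1, Tal1 and Gfi1 kept their direction and their call in all 19 alternatives, and 6 or 7 factors were lower in each. Lyl1 turned to -0.16 with quantile normalization, -0.15 with cyclic loess, -0.013 with spike-in scaling and -0.17 in the deposited matrix values. With spike-in scaling Klf1 turned to -0.090 and Gfi1b to -0.093, and with the 75th percentile over probes above background on all arrays they turned to -0.016 and -0.019. Fli1 turned to 0.054 without positive replicate 1, and Cpa3 to 0.012 with normexp background correction, neither passing the test. The factors called higher, 2 here, numbered 0 with quantile normalization, cyclic loess, spike-in scaling, the percentile over probes above background, the deposited matrix values and an adjusted p under 0.01, 1 with median centring or no filter on dim probes, and 0 to 1 when 1 array was left out.

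Of all genes, 8611 were higher and 4779 lower. These counts were 5542 higher with cyclic loess, 3299 higher and 8099 lower with spike-in scaling, 4384 higher and 7252 lower with the percentile over probes above background, and 14564 higher with no filter on dim probes. At an adjusted p under 0.01 there were 7861 calls, 5002 higher and 2859 lower. Leaving out 1 array gave 7602 to 12769 calls, 4764 to 7995 higher and 2838 to 4774 lower, and the lowest counts came without a negative array. The cause of these changes was not tested, other than that leaving out an array leaves fewer samples.

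The labels do not say that replicate numbers pair the arrays, and the deviations of same-numbered arrays correlated at 0.0971 over 22362 genes. With the replicate number as a block 13946 genes were called, against 13390 without it, and the factors still gave 7 lower and 2 higher. Signal over background limits Klf1 and Gata1, the dimmest factors.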
